A study of Mus musculus with 6 samples.

Results

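The genes described here encode the proteins of the mitochondrial ribosome, and were chosen by name alone: every gene of the deposited table whose symbol begins with Mrpl or Mrps followed by a number, with pseudogene names left out. The rule found 78 of the 25491 genes in the table, 49 named for the large subunit (Mrpl) and 29 named for the small subunit (Mrps), and 77 of them passed the filter on low counts. Bulk RNA was sequenced from mesenchymal progenitors of the bone marrow of mice, stromal cells that support blood formation and can give rise to bone-forming cells. They were freshly sorted by flow cytometry as CD51+ cells lacking CD45, TER119, CD31, CD44 and SCA1. One group of 3 libraries came from wild type mice and the other 3 libraries from Lama4-/- mice. Lama4 encodes laminin alpha 4, part of the basement membrane around blood vessels and other cells. All were C57BL/6J animals aged 14 weeks, and both groups had received 7 Gy of sublethal irradiation 6 weeks earlier, so the comparison is between genotypes in irradiated marrow and holds no unirradiated animal. The design text names 3 wild type and 3 Lama4-/- mice. The labels give neither the part of Lama4 that was deleted nor which mouse each library came from. The p-values thus measure the spread between these libraries.

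The mitochondrial ribosome translates the few messenger RNAs encoded in mitochondrial DNA, which specify core subunits of the respiratory chain and of ATP synthase. Its RNAs come from mitochondrial DNA, but its proteins are encoded by nuclear genes scattered over the genome, made by cytosolic ribosomes and imported. Mammalian mitochondrial ribosomes have lost much ribosomal RNA and gained many proteins that bacterial ribosomes lack. In the annotation the 78 genes lie on 17 chromosomes.

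Library totals ran from 6263830 counts (wild type 2) to 15663957 (Lama4-/- 1), and the median member had 100.5 counts in wild type 2 and 271.5 to 479.0 in the other libraries. Lama4 itself had 607, 236 and 438 counts in the wild type libraries and 0 in each Lama4-/- library, at least 581-fold lower against a floor of 3 counts over the group. Stromal transcripts were abundant: Col1a2 and Col1a1, the chains of type I collagen, stood at 32390 to 76834 and 19637 to 69810 CPM (counts brought to a common library total, with scaling by the trimmed mean of M-values, TMM). Of 14 mesenchymal progenitor markers, 12 had a negative fold change and 7 were lower in every Lama4-/- library than in every wild type library, as were 1733 of all 14465 tested genes. By edgeR 6 of the markers were lower at an unadjusted p under 0.05 (8.34 percent of all tested genes). DESeq2 called 4 of them (4.64 percent of the genes it adjusted). With the trend with principal transcript length removed, the markers' median log2 fold change went from -0.61 to -0.13 and 5 of the 14 were positive. The ratio of their summed CPM was 0.993, but most of that sum was Col1a1 and Col1a2, and it ran from 60406 to 149685 CPM in Lama4-/-. The 5 measured genes of the sort gate were Itgav (CD51, selected for) and Cd44, Pecam1, Ptprc and Ly6a, all selected against. By edgeR 2 of them were lower at an unadjusted p under 0.05 (8.34 percent of all tested genes). DESeq2 called 1 of them (4.64 percent of the genes it adjusted). All 5 were negative, with a median of -0.94, or -0.46 with that trend removed, values that pool both kinds of marker. Their sums did not overlap between genotypes (249.8 ± 62.5 CPM in wild type and 134 ± 26.1 in Lama4-/-, SD, n = 3), and the part of cell composition in the members' shift was not tested. Wild type 2 stood apart by its depth and by its low share of counts from mitochondrial DNA (0.427%, against 1.71% and 1.80% in the other wild type libraries and 0.447% to 0.917% in Lama4-/-), so the results are also given without it.

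Mitochondrial ribosomal protein transcripts were more abundant in the Lama4-/- libraries as a group, by a modest amount spread over nearly the whole family. Their summed level was 2019.8, 1493 and 1772 CPM in the wild type libraries (mean 1761 ± 264, SD, n = 3) and 2632, 2293 and 2427 CPM in the Lama4-/- libraries (2451 ± 171, SD, n = 3). Every Lama4-/- library was above every wild type library, and the ratio of the means was 1.39 (1.29 without wild type 2). As a share of all counts the family took 0.139% to 0.207% in wild type and 0.235% to 0.280% in Lama4-/-. In sorted bulk cells, fewer cells of a type and less RNA per cell cannot be told apart.

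**Figure D1:**
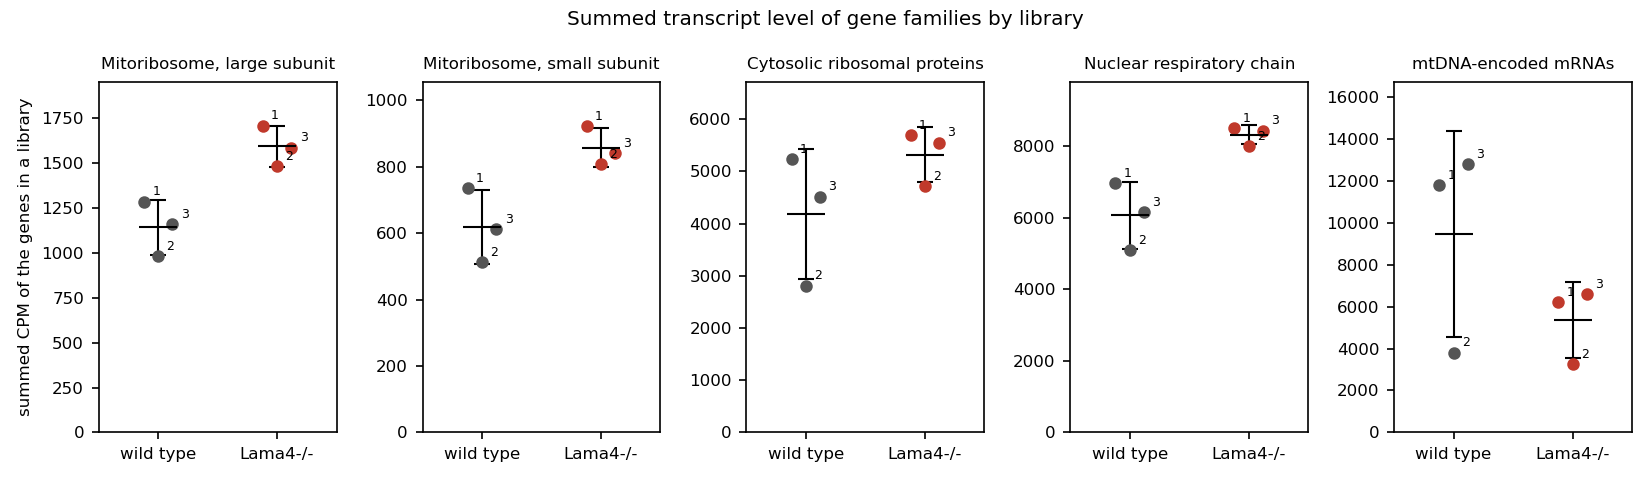
Summed TMM-scaled CPM of each gene family in each library (points, numbered by replicate; horizontal bar and whiskers, mean ± SD, n = 3 per genotype; linear axes from 0). Large and small subunit genes of the mitochondrial ribosome and nuclear respiratory chain genes (ATP synthase included) did not overlap between genotypes, while cytosolic ribosomal protein genes and the messenger RNAs of mitochondrial DNA did.

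Of the 77 tested members, 71 had a positive log2 fold change (Lama4-/- minus wild type) and 6 a negative one, that is 92.2% positive where 48.0% of all 14465 tested genes were. The median log2 fold change was 0.44, a 1.35-fold difference, against -0.04 over all tested genes. The middle 50% of members lay between 0.28 and 0.66, and the whole range ran from -0.76 (Mrps27) to 0.97 (Mrpl11). The members were thus shifted together by a small amount rather than led by a few genes.

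No single member was called by the tests run on the counts. With edgeR's quasi-likelihood test and Benjamini-Hochberg adjustment over all tested genes, 0 members passed an adjusted p of 0.05 (percentage of all tested genes called: 0.00691), and the smallest adjusted p was 0.267. At an unadjusted p under 0.05, 11 members were higher in Lama4-/- (14.3%, against 4.45 percent of all tested genes) and 0 were lower (against 8.34 percent). DESeq2 called 0 members (4.64 percent of the genes it adjusted), with a smallest adjusted p of 0.0530. It had 15 members higher at an unadjusted p under 0.05. The share was 3.73 percent of the 25358 genes it tested, a set without the filter on low counts. Limma voom called 0 members (percentage called: 0) and had 8 higher at an unadjusted p under 0.05 (5.43 percent of the filtered genes). In the authors' deposited table, 71 members had a positive log2 fold change and 1, Mrpl39, had an adjusted p under 0.05 (0.0425). That table gives an adjusted p for 72 members, and 675 genes in all are under 0.05 in it.

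A separation of the libraries that uses no fitted spread gave the same side. In 26 of the 77 tested members (33.8%) every Lama4-/- library was above every wild type library, where 10.3 percent of all tested genes were so placed. For 0 members was every Lama4-/- library below every wild type library, against 1733 of the 14465 tested genes; in either direction 22.3 percent of tested genes were apart.

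**Figure D2:**
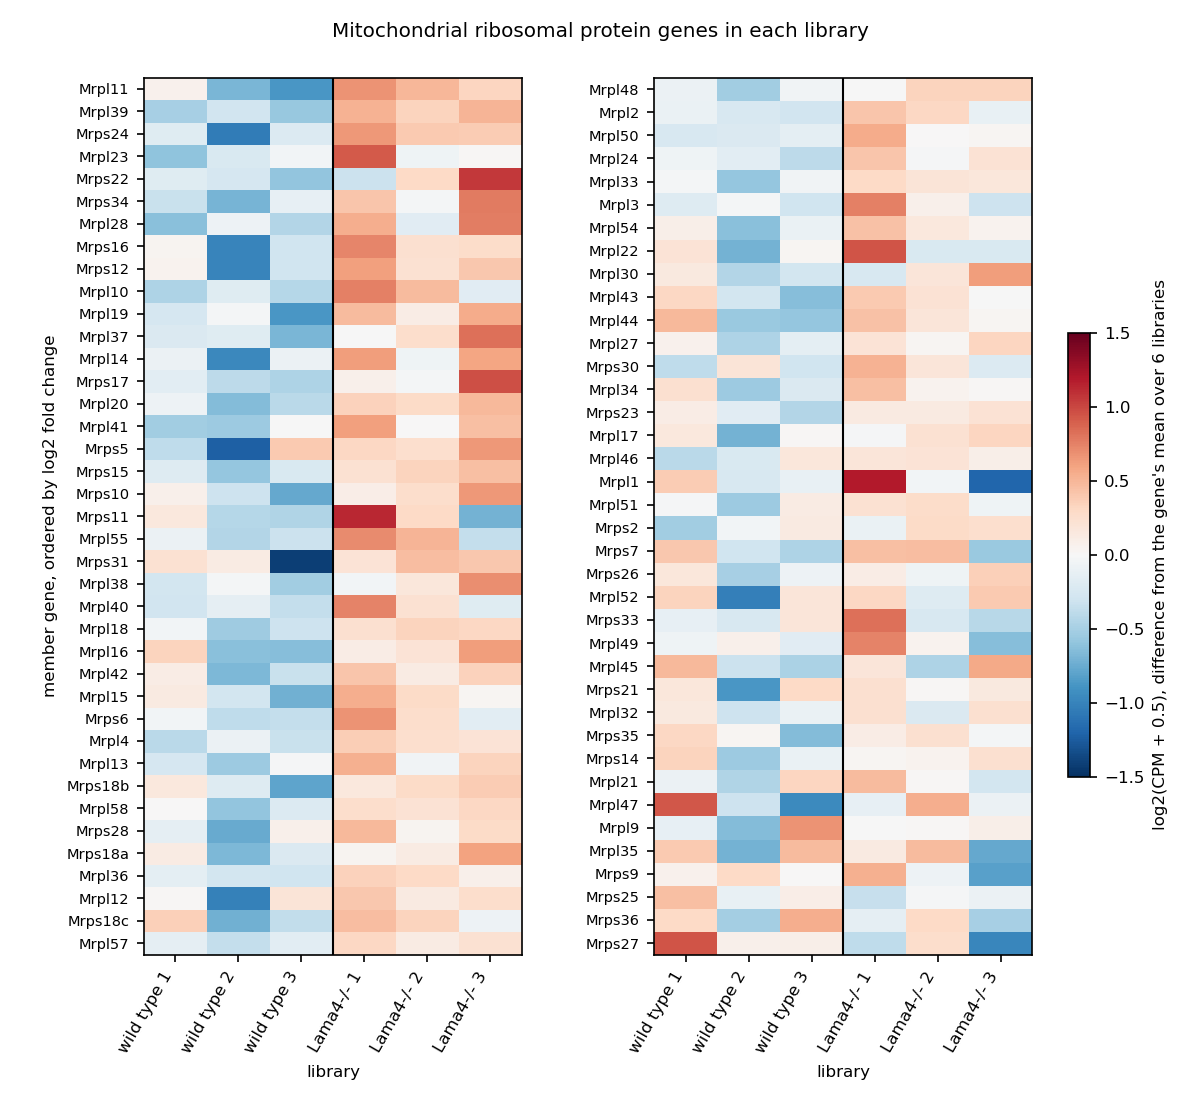
Level of each tested member in each library, as log2(CPM + 0.5) minus the gene's mean over the 6 libraries (red above, blue below), with members ordered by fold change and the vertical line between genotypes. Wild type 2 was the lowest library for 37 members and Lama4-/- 1 the highest for 37.

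The libraries within a genotype were not alike. Of the 77 tested members, 37 had their highest level in Lama4-/- 1, 23 in Lama4-/- 3 and 8 in Lama4-/- 2, while 37 had their lowest level in wild type 2 and 22 in wild type 3. Wild type 1 stood nearest to the Lama4-/- libraries. Taking each wild type library with each Lama4-/- library, pairings that share libraries, 50 to 72 of the 77 members were higher in the Lama4-/- one, and the median member difference in log2(CPM + 0.5) ran from 0.16 to 0.77. Left out in turn, no library brought the count of positive members below 66 or the median below 0.37, and without wild type 2 these were 66 and 0.37. The count at an unadjusted p under 0.05 fell to 4 without Lama4-/- 1, to 5 without wild type 3 and to 7 without wild type 2.

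Promoter sequence was examined because genes of nuclear origin that serve mitochondria are known to carry sites for a small set of factors, and these members lay mostly on 1 side. The RefSeq promoter table (GRCm38.p6; 250 bases before to 50 after each start) held 75 windows for 69 members; Mrpl4, Mrpl13, Mrpl15, Mrpl19, Mrpl38, Mrpl54, Mrps28, Mrps34 and Mrps35 had none. The letters CCGGAAG (or CTTCCGG on the other strand), a motif of the ETS family to which GABPA belongs, were in 34.7% of member windows, 16.6% of the windows of tested genes and 8.86% of all windows. AAGATGG (or CCATCTT), a YY1 motif, was in 17.3% of member windows, 6.80% of those of tested genes and 6.34% of all. GCATGC, the core of NRF1 sites, was in 9 of the 75 member windows, 9.63% of those of tested genes and 7.93% of all. CACGTG, the E box that MYC and its partners bind, was in 9.33%, 9.76% and 7.15%. The last pair reads the same on either strand, none of these motifs lies within another, and the ends of the ETS and YY1 letters can overlap. The median log2 fold change was 0.40 over 25 tested members with the ETS letters and 0.49 over 43 without. For YY1 it was 0.49 over 13 with and 0.43 over 55 without, and for the E box 0.49 over 5 with and 0.43 over 63 without. For the NRF1 core it was 0.43 both over 9 with and over 59 without.

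The stretches printed here end 0 to 18 bases before the start site, outside annotated exons, and show members with positive and with negative fold changes that carry these letters, with the motif in capitals. Mrpl20 (chr4:155802758-155802877, plus strand) has the E box. Mrpl58 (chr11:115403632-115403751, plus), Mrps18a (chr17:46110884-46110985, plus) and Mrps27 (chr13:99344706-99344785, plus) have the ETS letters, Mrpl22 (chr11:58171544-58171660, plus) has them with the NRF1 core, and Mrpl9 (chr3:94443216-94443317, plus) has the NRF1 core.
Mrpl20: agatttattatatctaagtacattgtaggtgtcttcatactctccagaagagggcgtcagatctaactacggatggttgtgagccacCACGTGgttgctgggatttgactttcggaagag
Mrpl58: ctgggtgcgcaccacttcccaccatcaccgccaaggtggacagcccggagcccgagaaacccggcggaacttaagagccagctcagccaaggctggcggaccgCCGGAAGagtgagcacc
Mrps18a: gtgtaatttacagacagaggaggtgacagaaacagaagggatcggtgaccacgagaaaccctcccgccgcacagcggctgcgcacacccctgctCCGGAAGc
Mrps27: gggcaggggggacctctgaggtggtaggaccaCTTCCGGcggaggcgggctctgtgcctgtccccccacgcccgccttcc
Mrpl22: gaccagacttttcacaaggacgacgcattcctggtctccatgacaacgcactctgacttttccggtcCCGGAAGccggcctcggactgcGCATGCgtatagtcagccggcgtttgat
Mrpl9: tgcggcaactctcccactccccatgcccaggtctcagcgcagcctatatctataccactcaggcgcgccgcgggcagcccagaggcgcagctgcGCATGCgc
A match is a string of letters and not a measured binding site, and a window without one says only that these letters are not in it.

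Large subunit members with the smallest p-values were all higher in Lama4-/-. Mrpl20, a homologue of a bacterial protein that binds ribosomal RNA early in subunit assembly (chromosome 4, 155802878 to 155809975, GRCm38), had 58.9, 39.2 and 46.7 CPM in wild type and 79.0, 75.8 and 87.2 in Lama4-/-. The lowest Lama4-/- library was above the highest wild type library, and the log2 fold change was 0.74 ± 0.23 (SE). Mrpl39, a protein of mitochondrial ribosomes related to threonyl-tRNA synthetase, had 11.8, 13.7 and 11.2 CPM in wild type and 24.5, 21.4 and 24.3 in Lama4-/-. Each Lama4-/- library was well above all wild type libraries, and wild type libraries lay within a narrow range. Its log2 fold change was 0.93 ± 0.31 (SE), with an adjusted p of 0.294 by edgeR and 0.0530 by DESeq2.

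Mrpl11, a protein at the base of the stalk that contacts translation factors, had 17.9, 10.4 and 9.10 CPM in wild type and 27.5, 24.3 and 21.6 in Lama4-/-. No library crossed between groups, and the log2 fold change of 0.97 ± 0.37 (SE) was the highest of the family. Mrpl10, which anchors the stalk, had 24.3, 29.8 and 25.1 CPM in wild type and 57.5, 47.4 and 30.1 in Lama4-/-. Lama4-/- 3 was barely above wild type 2, and the log2 fold change was 0.77 ± 0.30 (SE). Mrpl12, the stalk protein that also binds the mitochondrial RNA polymerase, had 36.4, 17.6 and 41.1 CPM in wild type and 47.8, 39.7 and 43.3 in Lama4-/-. Here the groups overlapped, since wild type 3 was above Lama4-/- 2, and the log2 fold change was 0.45 ± 0.34 (SE).

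Mrpl4, which lines the tunnel through which the new chain leaves, had 44.1, 55.0 and 46.2 CPM in wild type and 75.9, 69.6 and 67.2 in Lama4-/-. The groups did not overlap, with a log2 fold change of 0.55 ± 0.20 (SE). Mrpl45, which ties the tunnel exit to the inner membrane, had 30.9, 17.5 and 15.7 CPM in wild type and 24.9, 15.8 and 32.8 in Lama4-/-. Both groups covered the same range, and its log2 fold change of 0.20 ± 0.41 (SE) was negative, at -0.071, without Lama4-/- 3.

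Mrpl37, a protein that bacterial ribosomes lack, had 45.7, 47.1 and 33.0 CPM in wild type and 53.2, 64.1 and 95.4 in Lama4-/-, with Lama4-/- 3 far above the rest. Mrpl28 had 28.3, 41.8 and 32.5 CPM in wild type and 64.8, 39.0 and 75.3 in Lama4-/-. Its groups overlapped, as Lama4-/- 2 was below wild type 2. Their log2 fold changes were 0.76 ± 0.29 and 0.81 ± 0.31 (SE). Mrpl41, a large subunit protein also studied in apoptosis, had 16.2, 15.9 and 23.4 CPM in wild type and 36.4, 23.6 and 32.3 in Lama4-/-. Its groups touched without overlapping, Lama4-/- 2 standing next to wild type 3, and its log2 fold change was 0.73 ± 0.32 (SE).

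Mrpl58, which frees ribosomes stalled on a messenger, had 25.6, 16.8 and 22.1 CPM in wild type and 30.7, 29.7 and 31.9 in Lama4-/-. The Lama4-/- libraries lay close together and above all wild type libraries, with a log2 fold change of 0.51 ± 0.28 (SE). Mrpl44, which resembles an RNase III enzyme, had 12.6, 5.82 and 5.71 CPM in wild type and 12.1, 10.1 and 9.004 in Lama4-/-. Wild type 1 was above every Lama4-/- library. In all, 46 of 48 tested large subunit members had a positive log2 fold change, with a median of 0.44, and 18 had every Lama4-/- library above every wild type library (10.3 percent of all tested genes).

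Among small subunit members, Mrps24, the counterpart of a bacterial protein at the entry of the messenger channel, had 33.4, 17.98 and 32.6 CPM in wild type and 59.8, 49.9 and 49.5 in Lama4-/-. The groups were well apart, with a log2 fold change of 0.92 ± 0.30 (SE); 15.4% of its exon length is shared with Urgcp on the same strand, whose reads may be mixed with its own. Mrps12, a protein of the decoding centre, had 31.1, 14.9 and 24.3 CPM in wild type and 46.2, 35.2 and 39.9 in Lama4-/-. No library crossed between groups, and the log2 fold change was 0.78 ± 0.33 (SE).

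Mrps15 and Mrps16 are counterparts of bacterial proteins that bind small subunit RNA. Mrps15 had 19.7, 14.9 and 19.1 CPM in wild type and 26.5, 28.7 and 31.1 in Lama4-/-. Mrps16 had 35.1, 16.95 and 27.5 CPM in wild type and 57.1, 40.2 and 41.3 in Lama4-/-. In both genes every Lama4-/- library was above every wild type library, with log2 fold changes of 0.68 ± 0.28 and 0.80 ± 0.33 (SE). The adjusted p of the 11 members at an unadjusted p under 0.05 ran from 0.267 to 0.385 (edgeR).

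Mrps18a, Mrps18b and Mrps18c are paralogs, of which the Mrps18a protein sits in the large subunit despite its name, as does that of Mrps30. Mrps18a had 33.4, 19.01 and 26.2 CPM in wild type and 31.6, 33.2 and 46.6 in Lama4-/-. Mrps18b had 11.7, 9.08 and 5.79 CPM in wild type and 11.6, 12.9 and 13.7 in Lama4-/-. Mrps18c had 14.3, 6.51 and 8.41 CPM in wild type and 15.4, 14.1 and 10.5 in Lama4-/-. In each of these paralogs wild type 1 reached into the Lama4-/- range, and their log2 fold changes were alike, at 0.50 ± 0.31, 0.53 ± 0.44 and 0.45 ± 0.46 (SE). For Mrps18b and Mrps18c, 30.5% and 23.2% of the exon length is shared with another annotated gene. By name, 25 of 29 small subunit members had a positive log2 fold change, with a median of 0.50, and 8 had every Lama4-/- library above every wild type library (10.3 percent of all tested genes).

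The subunits did not separate. Large subunit members summed to 1142 ± 153 CPM (SD, n = 3) in wild type and 1593 ± 113 in Lama4-/-, a ratio of 1.40. Small subunit members summed to 619 ± 112 CPM in wild type and 857 ± 58.7 in Lama4-/-, a ratio of 1.38. In neither subunit did the genotypes overlap, and no test between the subunits was made.

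The 6 members with a negative log2 fold change had libraries that overlapped between genotypes, and the value was smaller than its standard error in 5 of them. Mrps27, a pentatricopeptide repeat protein of the small subunit, had 12.9, 6.85 and 6.94 CPM in wild type and 4.86, 7.90 and 3.05 in Lama4-/-. Lama4-/- 2 stood among the wild type libraries, and the log2 fold change was -0.76 ± 0.60 (SE), with 24.2% of its exon length under a gene on the opposite strand. Mrps25 had 21.5, 14.4 and 16.7 CPM in wild type and 12.2, 15.4 and 14.6 in Lama4-/-, a log2 fold change of -0.32 ± 0.34 (SE). That value was 0.42 once the trend with transcript length was removed, and 69.8% of its exon length is shared with Nr2c2 on the opposite strand.

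Mrps36 had 1.87, 0.856 and 2.32 CPM in wild type and 1.26, 1.88 and 0.871 in Lama4-/-, too low to set the groups apart (-0.34 ± 0.95, SE, log2). Its protein has since been assigned to the oxoglutarate dehydrogenase complex rather than to the ribosome, and the gene has a pseudogene copy that could take its reads. Mrps9, Mrpl35 and Mrpl9, counterparts of bacterial ribosomal proteins, had log2 fold changes of -0.15 ± 0.45, -0.12 ± 0.48 and -0.04 ± 0.37 (SE). Each turned positive on leaving out a library: Mrps9 to 0.14 without Lama4-/- 3, Mrpl35 to 0.17 without the same library and Mrpl9 to 0.41 without wild type 3. Mrpl53, the untested member, had 1, 0 and 1 counts in wild type and 1, 0 and 0 in Lama4-/-, and 88.0% of its exon length is shared with another gene.

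**Figure D3:**
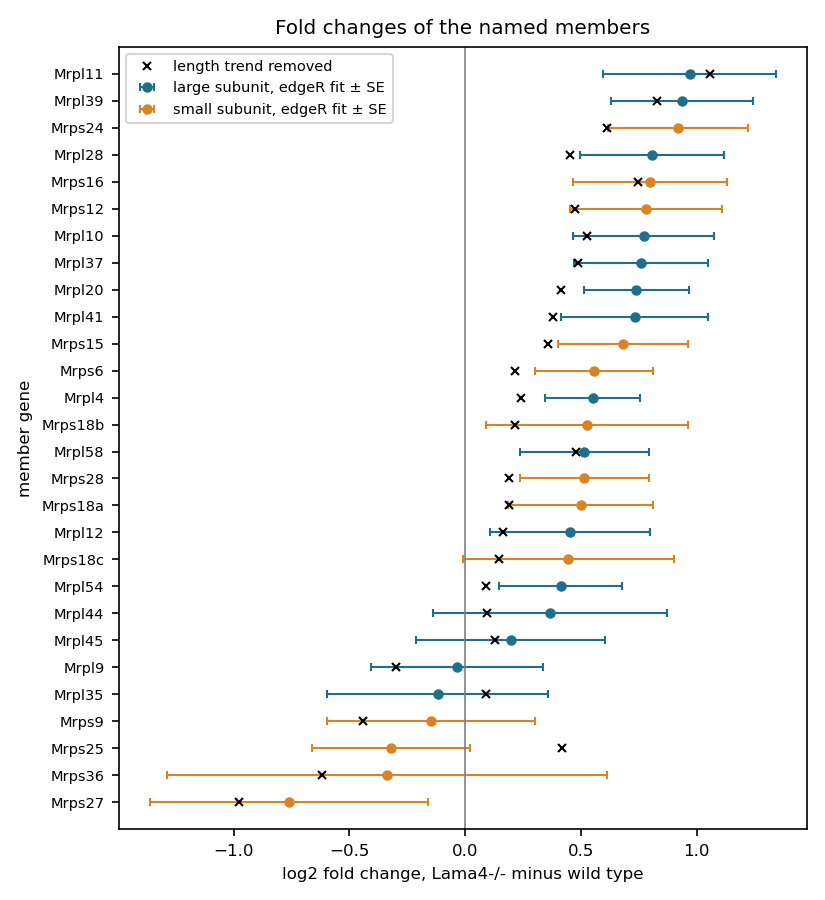
Log2 fold change (Lama4-/- minus wild type) of the 28 members described by name, with the edgeR estimate ± SE (circles; blue, large subunit; orange, small subunit) and the estimate after removal of the trend with principal transcript length (crosses). Most estimates lie above 0 with errors that overlap one another, and for members with a positive estimate the crosses lie nearer to 0, except for Mrpl11; removal turned the sign of Mrps25 and Mrpl35.

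Levels per kilobase of merged exon length differed far more between members than between genotypes. Averaged over the 6 libraries, Mrps28 (71.0 CPM per kilobase), Mrps6 (67.5), Mrpl54 (58.9), Mrpl20 (38.7) and Mrpl28 (34.0) were the highest members on this scale, and Mrpl23 (0.284) the lowest tested one. The order depended on the length used. Per kilobase of the longest transcript, Mrps6 (92.8), Mrpl54 (80.4) and Mrpl20 (79.6) stood above Mrps28 (71.0), and Mrpl28 ranked 6. No ranking by principal transcript length was made. The median member stood at 8.72 CPM per kilobase, with 60 of the 77 tested members above the median tested gene (3.64). On the same scale the median cytosolic ribosomal protein gene stood at 12.1 and the median nuclear respiratory chain gene at 45.8. The cytosolic list summed to a mean of 4188 CPM over the wild type libraries. Whether reads of these genes were lost to pseudogene copies was not tested. The values therefore describe counted reads and do not rank the families by transcript abundance.

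Of these leading members, Mrpl20 and Mrpl28 were among those with the smallest p-values. Mrps28 had 48.9, 31.5 and 56.7 CPM in wild type and 75.1, 55.3 and 65.8 in Lama4-/-. Mrps6 had 96.8, 76.5 and 77.8 CPM in wild type and 159.9, 120.3 and 89.5 in Lama4-/-. Mrpl54 had 50.3, 30.5 and 44.1 CPM in wild type and 64.3, 53.0 and 49.1 in Lama4-/-. In each of them 1 Lama4-/- library lay below the highest wild type library, and the log2 fold changes were 0.51 ± 0.28, 0.56 ± 0.25 and 0.41 ± 0.26 (SE). The Mrps6 gene shares 19.9% of its exon length with genes on its own strand, among them Slc5a3.

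The fold change over all genes fell with transcript length, and members are mostly short. Across 14463 tested genes the Spearman correlation of log2 fold change with the length of the longest annotated transcript was -0.46, a description across genes of the same libraries. Over the members it was -0.04. With the length of the principal transcript these correlations were -0.47 and -0.19. The median principal transcript was 1316 bases long for members and 2773 bases for all tested genes. In each of 10 equal bins of principal transcript length, the members' median was above that of all tested genes: in the shortest bin 0.50 over 20 members against 0.34, in the next 0.55 over 25 members against 0.35, and in the eighth 0.43 over 6 members against -0.39. All but the 2 shortest bins held 1 to 6 members, so their medians rest on few genes.

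Removing this trend from each library reduced the members' shift without ending it. With the longest transcript the median log2 fold change was 0.32, with 65 positive (51.4 percent of all genes) and 11 at an unadjusted p under 0.05 and higher (4.95 percent of all genes). What remained was larger in the longer members. The median was 0.14 over the 39 tested members with a longest transcript of up to 1884 bases, and 0.54 over the 38 longer ones. Before removal these medians were 0.45 and 0.44. With the principal transcript, a choice made after seeing the data, the median over all tested members was 0.27. Of these, 67 were positive (51.8 percent) and 8 were at an unadjusted p under 0.05 and higher (4.76 percent). Mrpl39, Mrps24 and Mrpl11 were at an unadjusted p under 0.05 with and without either removal, and 0 members passed the adjusted threshold. How far RNA or cDNA length shaped the libraries was not tested.

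**Figure D4:**
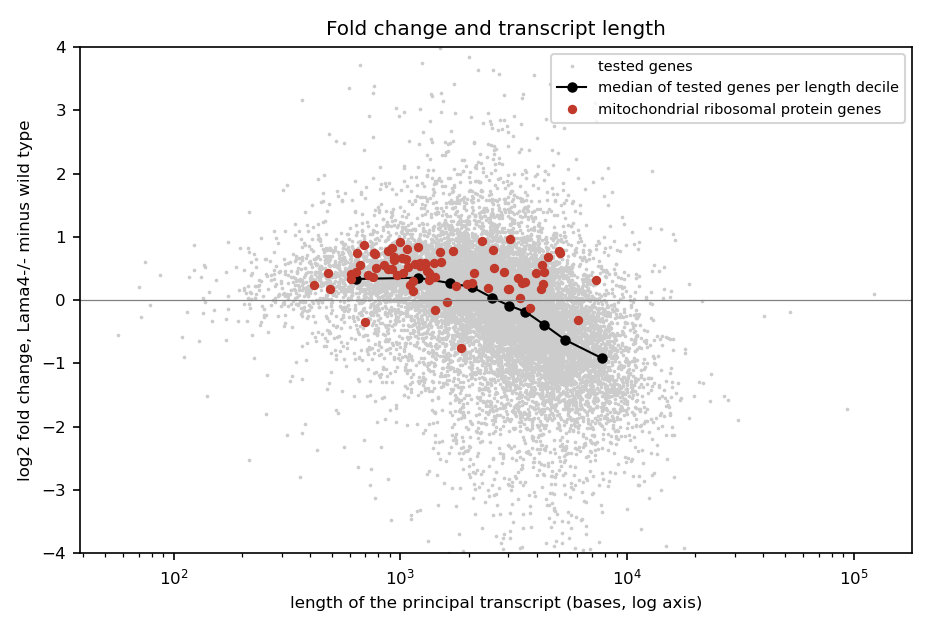
Log2 fold change (Lama4-/- minus wild type) against the length of the principal transcript (bases, log axis) for tested genes (grey), with the median per length decile (black line) and the 77 tested members (red). Genes beyond a log2 fold change of 4 in either direction are not shown; the median over all tested genes falls from 0.34 to -0.92 with length while members stay mostly above 0.

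Other families shifted too. The 2 compared here were drawn by symbol alone. The cytosolic ribosomal protein list therefore also holds paralogs and a gene named for binding such a protein. Nuclear respiratory chain genes, a list that here includes the nuclear subunits of ATP synthase, had 81 of 83 tested genes with a positive log2 fold change. Their median was 0.45, and their summed levels did not overlap between genotypes (6069 ± 936 CPM in wild type, 8307 ± 266 in Lama4-/-, SD, n = 3). Of 88 tested cytosolic ribosomal protein genes, 73 were positive with a median of 0.28, and their sums overlapped. With the principal length trend removed these medians were 0.16 and 0.01, beside 0.27 for the mitochondrial ribosomal protein genes. In 28 respiratory chain genes, 10 cytosolic ones and 26 members every Lama4-/- library was above every wild type library (10.3 percent of all tested genes). By edgeR 16, 3 and 11 were higher at an unadjusted p under 0.05 (4.45 percent of all tested genes). DESeq2 called 3, 1 and 0 (4.64 percent of the genes it adjusted). No test between families was made.

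**Figure D5:**
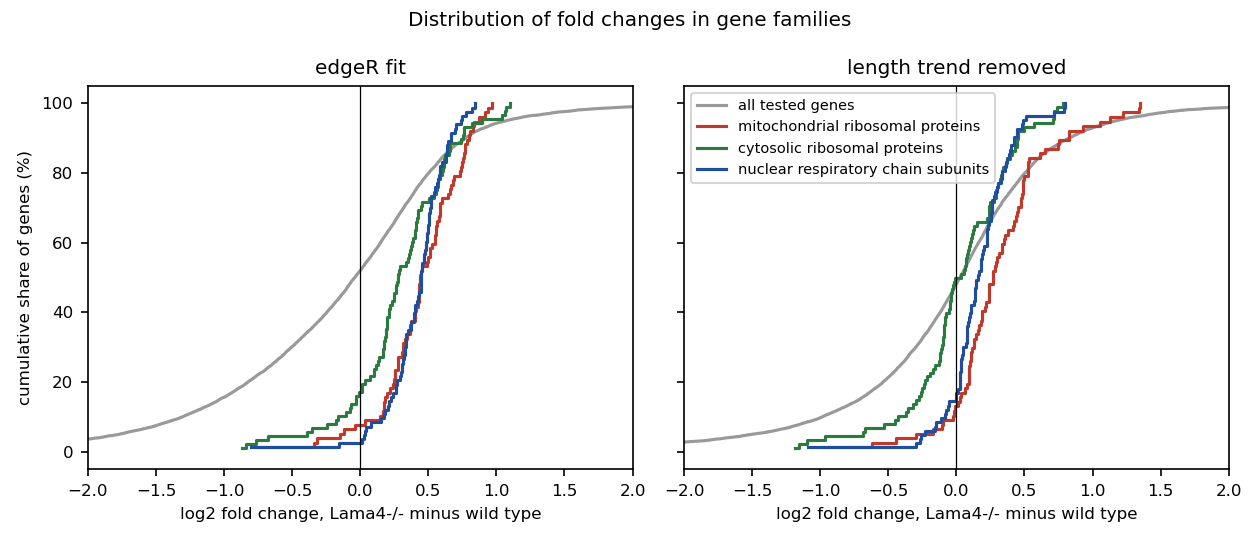
Cumulative share of genes (percent) by log2 fold change (Lama4-/- minus wild type) for all tested genes and for 3 gene families, in the edgeR fit (left) and with the principal transcript length trend removed (right); values beyond 2 in either direction lie outside the axes. The mitochondrial ribosomal protein curve (red) lies right of the grey curve for all tested genes over most of its course in both panels, while the cytosolic ribosomal protein curve (green) crosses 50% near 0 on the right.

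The measured messengers that the mitochondrial ribosome translates had fold changes opposite to those of most members, with overlap between genotypes. All 8 messenger RNAs of mitochondrial DNA in the table had a negative log2 fold change (median -0.95), with 3 of them, mt-Nd4, mt-Nd6 and mt-Nd2, at an unadjusted p under 0.05 (8.34 percent of all tested genes were lower at that threshold). DESeq2 called 1 of them, mt-Nd4, with an adjusted p of 0.047, and edgeR called 0. Their sum was 11789, 3803 and 12796 CPM in wild type and 6211, 3271 and 6582 in Lama4-/-. Wild type 2 lay within the Lama4-/- range, so the genotypes overlapped. In 0 of the 8 was every Lama4-/- library below every wild type library, as in 1733 of all 14465 tested genes. mt-Nd4, a subunit of complex I, had 1739, 268.5 and 1329 CPM in wild type and 384, 202 and 419 in Lama4-/-, the highest Lama4-/- library lying above wild type 2.

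The 5 measured ribosomal proteins under other names were all positive, with a median log2 fold change of 0.51, or 0.48 with the principal length trend removed, and a ratio of summed CPM of 1.495. Among them Dap3, a GTP-binding small subunit protein, had 41.7, 33.0 and 31.3 CPM in wild type and 54.9, 54.2 and 70.6 in Lama4-/-, with no overlap and a log2 fold change of 0.76 ± 0.24 (SE). Chchd1 and Ptcd3, also of the small subunit, had log2 fold changes of 0.80 ± 0.35 and 0.51 ± 0.30 (SE).

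Of 12 tested translation factors 10 were positive, with a median of 0.30, or 0.22 with the principal length trend removed. Mtif3, an initiation factor, had 3.37, 2.91 and 4.09 CPM in wild type and 15.2, 8.35 and 9.58 in Lama4-/-. Its groups were far apart, with a log2 fold change of 1.67 ± 0.53 (SE) and an adjusted p of 0.040 by DESeq2, though edgeR did not call it. Tsfm, an elongation factor, and Mtrf1l, a release factor, had log2 fold changes of 0.56 ± 0.32 and 1.14 ± 0.72 (SE).

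Of 20 aminoacyl-tRNA synthetase and amidotransferase genes 12 were positive (48.0 percent of all tested genes were), with a median of 0.21. Their summed CPM went the other way, with a ratio of 0.72 and sums that overlapped between genotypes. That sum ran from 779 to 3630 CPM within wild type and from 1149 to 2066 in Lama4-/-. A sum is weighted to the most abundant genes, so the ratio does not describe most of the list. With the principal length trend removed their median was 0.30, beside 0.27 for the members. Rars2 and Pars2, which charge arginine and proline, had log2 fold changes of 1.25 ± 0.48 and 3.63 ± 2.01 (SE), Pars2 being at 0 CPM in wild type 3 and in Lama4-/- 2.

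Of 28 assembly and rRNA modification factors 20 were positive, with a median of 0.26, or 0.23 with that trend removed. The assembly factors Mtg2 and Mettl17 and the RNA-binding protein Grsf1 had log2 fold changes of 1.46 ± 0.51, 0.95 ± 0.40 and 0.55 ± 0.25 (SE). Of 10 genes for membrane insertion and complex assembly 8 were positive, with a median of 0.27, or 0.28 with that trend removed, led by Timm21 at 1.05 ± 0.37 (SE).

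Of 12 tested genes for mitochondrial transcription and RNA stability 6 were positive, with a median of 0.00. With the principal length trend removed 8 were positive, with a median of 0.21. Twnk, the mitochondrial DNA helicase, had 19.7, 18.5 and 17.9 CPM in wild type and 10.7, 8.42 and 3.12 in Lama4-/-, every Lama4-/- library being lower. Its start lies head to head with Mrpl43 (log2 fold change 0.37 ± 0.41, SE), and the library kit does not mark strand, so reads in their overlap cannot be assigned.

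Of 10 tested regulators of mitochondrial biogenesis 3 were positive, with a median of -0.55, or -0.28 with the principal length trend removed. Sp1, a general promoter-binding factor, had 53.6, 21.6 and 49.8 CPM in wild type and 16.03, 9.40 and 20.3 in Lama4-/-. Pprc1, a coactivator, and Yy1, the factor of the YY1 motif, had log2 fold changes of -1.06 ± 0.36 and -0.96 ± 0.46 (SE). In this list 2 genes were lower at an unadjusted p under 0.05 (8.34 percent of all tested genes were), with 0 calls by edgeR or DESeq2.

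Genes that start close to a member on the other strand were compared because neighbours of that kind can share a promoter. Within 1000 bases and without overlap, 18 members had such a neighbour, and 12 of the 18 neighbours had a positive log2 fold change (48.0 percent of all tested genes did). The neighbours' median was 0.35 against 0.44 for the members beside them. With the trend with longest transcript length removed, the order was the other way, at 0.41 for neighbours and 0.24 for members. Apba3, an adaptor protein gene 26 bases from Mrpl54, was the 1 neighbour at an unadjusted p under 0.05 and higher by edgeR (4.45 percent of all tested genes). It stood at 31.0 CPM in wild type and 68.9 in Lama4-/- (means, n = 3). Mrps11 and Mrpl46 overlap head to head and had log2 fold changes of 0.66 ± 0.55 and 0.30 ± 0.36 (SE). In all, 33 members share exon sequence with another annotated gene, and without these 42 of 45 tested members were positive, with a median of 0.51.

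Transcripts of blood cells were also more abundant in most Lama4-/- libraries. The 12 tested neutrophil and monocyte markers were all positive, and their sum was 125, 45.0 and 132 CPM in wild type and 815, 751 and 116 in Lama4-/-. The most abundant, S100a9 and S100a8, stood at 5.99 to 44.4 and 5.99 to 22.7 CPM in wild type and at 37.3 to 260 and 27.7 to 155 in Lama4-/-. Lama4-/- 3 was within the wild type range of this sum, and the other Lama4-/- libraries were above it.

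The 12 red cell markers were positive too, with sums of 269, 653 and 1718 CPM in wild type and 3497, 1399.8 and 3904 in Lama4-/-. Hbb-bs and Hba-a1, the leading haemoglobin genes, stood at 122 to 777 and 47.1 to 311 CPM in wild type and at 647 to 1991 and 225 to 631 in Lama4-/-. Lama4-/- 2 was within the wild type range of this sum, and the other Lama4-/- libraries were above it. No Lama4-/- library was thus within the wild type range of both the neutrophil and the red cell sums.

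Pan-haematopoietic and macrophage markers summed to 22.9 to 58.9 CPM in wild type and 59.3 to 84.4 in Lama4-/-, without overlap. Among them Fcer1g stood at 7.56 to 9.65 and 17.6 to 39.4 CPM and Cd68 at 4.62 to 15.2 and 3.96 to 11.7 CPM. Ptprc, which encodes CD45, was at 0 in wild type 1, Lama4-/- 1 and Lama4-/- 3. Endothelial markers summed to 8.56 to 14.2 CPM in wild type and 0.180 to 2.69 in Lama4-/-, led by Egfl7 (1.54 to 3.96 and 0 to 1.60 CPM) and Vwf (1.20 to 2.70 and 0 to 0.827 CPM). Lymphocyte markers summed to 4.97 to 13.4 and 3.19 to 14.1 CPM, led by Ighm (3.77 to 7.93 and 0 to 13.4 CPM) and Trac (1.20 to 2.31 and 0 to 2.25 CPM). The part of blood cell RNA in the members' shift was not tested.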

How the data were processed

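RNA was amplified with a SMART-Seq v4 kit, made into Nextera XT libraries and read as 75 bp single-end reads on either of a pair of Illumina instruments, per the labels' protocols, which do not say which library ran on which. The submitters' processing notes list, without roles or parameters, STAR 2.6.1d, Subread with featureCounts, FastQC 0.11.8, MultiQC 1.7 and DESeq2, and the build GRCm38 (mm10). In the 1 table that the authors deposited, the raw and normalized headings appear swapped. Values under the normalized heading are whole in 100% of cells and served as the deposited gene counts; those under the raw heading are a deposited signal, the same counts times a factor per library (0.708 to 1.98), and were not tested. The remaining columns hold, per the file headers, the authors' DESeq2 comparison, with a shrunken log2 fold change, a Wald score and a p-value.

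Counts of 14465 genes that passed filterByExpr were TMM-scaled and tested with the quasi-likelihood test of edgeR 4.0.16 (R 4.3.3), Lama4-/- against wild type, 3 libraries each, with Benjamini-Hochberg adjustment at 0.05. Alternatives were DESeq2 1.42.0, limma 3.58.1 voom, other scalings and filters, each library left out, and an offset for transcript length (lowess span 0.3; GENCODE annotation of the same build). Depth was 6263830 to 15663957 counts per library. Libraries of 1 genotype differed by more than sampling noise (lowest chi-square per gene 46.4). Tested on simulated counts of 13661 genes for this comparison, edgeR found 54 of the 100 genes given a 4-fold change, 86 of the 100 given a 16-fold change, and 7 false ones. The members, gene lists and tests were chosen with earlier results of these data known. The members named are the 10 with the smallest p in each direction, the 5 with the highest level per length and a list with known roles; of other lists the 3 with the smallest p (1 such gene is not reported here), and of marker lists the 2 most abundant. Mrpl22, Mrpl23, Mrpl43, Mrpl46, Mrpl53, Mrps11, Apba3 and the sort gate genes lie outside that rule and were named after their values were seen.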

Additional observations from a re-analysis of the deposited data

How the results depend on the processing

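There were 3 libraries a genotype, with a median of 100.5 counts per member in the shallowest, and simulation covered no change as small as the members' median. Over the alternatives run, members past an adjusted p of 0.05 numbered 0, those at an unadjusted p under 0.05 and lower numbered 0, and 65 to 72 were positive. Leaving out the 33 members with shared exons left 42 positive of 45, since fewer genes were counted. The median log2 fold change was 0.27 with the principal transcript length trend removed. Upper-quartile scaling moved the median of all genes from -0.04 to 0.06 and gave 20 members at an unadjusted p under 0.05 and higher; the cause was not tested. Leaving out each library in turn gave 4 to 9 such members, a median of 0.37 to 0.58, 66 to 72 positive and a ratio of summed CPM of 1.29 to 1.501.

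Over all genes, those past an adjusted p of 0.05 numbered 1 (Lama4), 0 with upper-quartile scaling, voom, the replicate block or either length removal, 12 with no filter, 741 with DESeq2 and 0 to 1 with a library left out. Those at an unadjusted p under 0.05 numbered 644 higher and 1207 lower. The higher ones were 988 with upper-quartile scaling and 397 to 707 with a library left out; the lower ones were 1910 with no filter, 1871 with DESeq2, 457 and 455 with the longest and principal length trends removed, and 787 to 1770 with a library left out. The causes were not tested.

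Of 28 named members, 5 changed sign in some setting and 0 passed the adjusted threshold in any. Mrpl9 was 0.063 with upper-quartile scaling, 0.069 with the replicate block and -0.29 to 0.41 with a library left out. Mrps25 was 0.35 and 0.42 with the longest and principal length trends removed. Mrpl35 was 0.092 with the principal trend removed and -0.41 to 0.17 with a library left out, Mrps9 -0.53 to 0.14 and Mrpl45 -0.071 to 0.58.

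Replicate numbers are shared between genotypes in the labels, but same-numbered libraries deviated together only weakly (correlations of 0.04, 0.13 and 0.05), so they were not taken as pairs; each library did correlate best with its own number. With the replicate block the members' median was 0.46, with 71 positive and 9 at an unadjusted p under 0.05 and higher beside 640 of all genes.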
